A study of Mus musculus with 3 samples.

Results

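Chemokines are small secreted proteins that draw leukocytes through tissue, and the genes described here are 38 listed mouse chemokine ligands and receptors, found by gene symbol in the deposited single-cell RNA sequencing counts of flexor digitorum longus (FDL) tendon. Of the 38 symbols, 37 had a row among the 32285 genes of the files, 27 of them ligands and 10 receptors. *Cxcl11* had no row and was not analysed here, and *Ccl19* had 2 rows, of which the second held no unique molecular identifier (UMI, one counted transcript). Each of the 3 groups was 1 library of 16 pooled tendons from mice of both sexes, so no group has a replicate and no difference was tested. The 6 M WT mice carried the *DTR* F/+ allele without *Scx-Cre*, and the 6 M DTR mice carried it with *Scx-Cre*, which acts in Scleraxis-lineage cells and switches on the diphtheria toxin receptor there. The paper lists the line with the *DTR* allele as C57BL/6 and states no background for the *Scx-Cre* mice. Both received 5 injections of diphtheria toxin at 3 months of age by the study's methods and were harvested at 6 months, whereas the sample labels give 3 months. The 21 M B6 mice were 21-month-old C57BL/6J animals without toxin. Because *Scx-Cre* is constitutive, any cell with a Scleraxis history can be depleted, and the 6 M WT tendons were digested for 2 h but the other groups for 90 min, so digestion time and group cannot be told apart in a comparison with 6 M WT.

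Chemokine ligands bind to receptors that signal through G proteins, and each leukocyte type carries its own set of receptors. Ligands of the CCR2 receptor attract monocytes, those of CXCR2 attract neutrophils, and CXCL12 retains cells that carry CXCR4. Fibroblasts, vessel cells and macrophages all make such ligands, and many of the genes are switched on within minutes to hours by interleukin 1 or tumour necrosis factor through the transcription factor NF-kB. Atypical receptors such as ACKR3 take up ligand and do not activate G proteins.

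Promoter sequences are shown for 5 ligands, to set rapidly inducible genes beside *Cxcl12*, which stroma makes constitutively. They are RefSeq sequences of mouse build GRCm38.p6, written 5′ to 3′ on the strand of the gene and ending at the base before its start. Capitals mark matches, on either strand, to the NF-kB consensus, to the AP-1 element (TGANTCA), to the interferon-stimulated response element (ISRE, GAAANNGAAA) or to TATAAA. Overlapping matches on both strands are written as 1 run of capitals.
*Cxcl1*, chr5:90891115-90891244, plus strand: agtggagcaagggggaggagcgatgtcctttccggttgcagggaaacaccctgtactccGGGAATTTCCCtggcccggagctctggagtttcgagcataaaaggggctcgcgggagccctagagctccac
*Cxcl2*, chr5:90903769-90903898, plus strand: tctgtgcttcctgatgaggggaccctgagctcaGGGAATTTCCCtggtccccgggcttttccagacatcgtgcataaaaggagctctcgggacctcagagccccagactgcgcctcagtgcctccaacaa
*Cxcl3*, chr5:90785971-90786100, plus strand: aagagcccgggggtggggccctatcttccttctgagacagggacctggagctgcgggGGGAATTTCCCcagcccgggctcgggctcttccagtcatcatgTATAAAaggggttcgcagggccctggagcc
*Cxcl10*, chr5:92348890-92349109, minus strand: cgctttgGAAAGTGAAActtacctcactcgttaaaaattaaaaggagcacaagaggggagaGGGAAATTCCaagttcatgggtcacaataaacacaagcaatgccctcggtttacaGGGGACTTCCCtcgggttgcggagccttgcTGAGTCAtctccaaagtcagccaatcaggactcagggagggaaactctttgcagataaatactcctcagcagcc
*Cxcl12*, chr6:117168405-117168534, plus strand: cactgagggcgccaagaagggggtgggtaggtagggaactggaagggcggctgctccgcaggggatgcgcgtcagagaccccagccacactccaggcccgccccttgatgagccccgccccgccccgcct
The 3 neutrophil-attracting ligands each held an NF-kB match within 100 bases of the start, *Cxcl10* held NF-kB, AP-1 and ISRE matches together, and the 130 bases shown for *Cxcl12* held none of these letters. Promoters were matched for 28 of the 37 genes, and those of *Ccl2*, *Ccl4*, *Ccl5*, *Ccl7*, *Ccl11*, *Ccl24*, *Cxcl5*, *Cxcl16* and *Ccr7* are named only. In the 250 bases before the start, 8 of the 28 held an NF-kB match (*Ccl9*, *Ccl20*, *Cxcl1*, *Cxcl2*, *Cxcl3*, *Cxcl10*, *Ccr1* and *Ccr6*), against 7.25% of 32851 RefSeq promoters. The AP-1 letters were in 2 of the 28 and in 6.75% of all promoters, the ISRE letters in 3 and 2.98%, and TATAAA in 9 and 12.4%. A match is a match of letters and not a measured binding site. In the order of protein-coding genes in RefSeq, several members are direct neighbours, and neighbours did not share a leading cell class throughout. *Ccl2*, *Ccl7*, *Ccl11*, *Ccl12* and *Ccl8* form a run of 5 on chromosome 11 that was led by epitenon-like, epitenon-like, mural-like, macrophage-like and epitenon-like cells in turn, as described next.

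The files held 15536, 16099 and 12273 barcodes. Values for the 3 libraries are given in the order 6 M WT, then 6 M DTR, then 21 M B6 throughout. After the study's filter of 1000 to 5000 genes and at most 10% mitochondrial counts, 8357, 6554 and 4798 cells were kept with a median of 13008, 12328 and 12914 UMIs. Between 13 and 15 kept barcodes were shared by any pair of libraries. Most cells were assigned to 11 classes by marker genes, none of which is a chemokine or a chemokine receptor of the list. Unnamed leukocytes (71, 65 and 30), unnamed fibroblasts (141, 127 and 96), ambiguous cells (97, 115 and 97) and other unnamed cells (39, 63 and 48) entered no class. Their UMIs are still in the library totals behind the shares of UMIs. Tenocyte-like cells numbered 5551, 2993 and 1030, epitenon-like cells 1363, 1293 and 2629, macrophage-like cells 527, 1040 and 463, endothelial-like cells 156, 152 and 140 and mural-like cells (pericytes and smooth muscle) 131, 180 and 30. There were 73, 81 and 48 Schwann-like, 37, 82 and 75 muscle-like, 16, 40 and 32 dendritic-like, 79, 203 and 33 gamma delta T-like and 49, 119 and 45 T/NK-like cells. Neutrophil-like cells, at 27, 1 and 2, were too few to be ranked and are described apart. The leading genes of each class held its markers, with an exception. Dendritic-like cells had 6 of 8 markers in at least 10% of cells but none among the 10 leading genes, which were *Ccl17*, *H2-Eb1*, *H2-Aa*, *Cd74*, *H2-Ab1*, *Ccl22*, *Il12b*, *Mgl2*, *Ccr7* and *H2-DMb1*, so these cells are better described by these genes. T/NK-like cells were led in part by *Il5* and *Gata3*. Of the fibroblasts, 4.66%, 5.76% and 5.01% lay near the boundary between tenocyte-like and epitenon-like.

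Levels are given as UMIs of a gene per 1000000 UMIs of the class (CPM), from UMIs summed over all cells of the class in a library. A transcript gives 1 UMI at its 3′ end whatever its length, so CPM of different genes can be set side by side without a length correction. Ranges in parentheses are exact 95% Poisson intervals for levels and exact 95% intervals for ratios, and cover counting error only, not differences between mice. The interval does not cover the case where 1 cell held a large share of a gene's UMIs, and that share is given for some genes only. Among the 30 mural-like cells of 21 M B6, 1 cell held 40.16% of the UMIs of *Ccl11* and 48.84% of those of *Cxcl10*. For *Cxcl12* and *Ccl19* the share of 1 such cell was 39.13% and 62.5%.

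The tendon made chemokines in nearly every cell class, but most members were led by immune cells. With the mean over the 3 libraries taken for each class of at least 50 cells, the highest level of a ligand was in a fibroblast class for 5 of 27 ligands, in endothelial-like, mural-like or Schwann-like cells for 7, and in a leukocyte class for 15. Among the 35 members of at least 5 CPM in the leading class, 5 were led by tenocyte-like or epitenon-like cells and 23 by a leukocyte class, compared with 9.39% and 37.5% of 13303 genes at that level. Macrophage-like cells led 10 of the 35 and dendritic-like cells 8, compared with 8.27% and 6.31% of genes. A lead of 10-fold or more over the second class was found for 7 of them, *Ccl12*, *Ccl17*, *Ccl22*, *Ccl24*, *Cxcl13*, *Pf4* and *Cx3cr1*, compared with 5.37% of genes. A lead of under 2-fold was found for 9 of 27 ligands and 5 of 10 receptors. Of the 5 ligands led by fibroblasts, *Ccl2* (1.04-fold), *Ccl7* (1.17-fold), *Cxcl1* (1.32-fold) and *Ccl20* (1.32-fold) had such a lead, and *Ccl8* led 3.46-fold. The same class led in each of the 3 libraries for 18 of 27 ligands and 6 of 10 receptors. The ligands together took 5.63%, 4.94% and 2.74% of all UMIs of macrophage-like cells, 1.91%, 1.82% and 1.76% of epitenon-like cells and 0.973%, 0.878% and 0.723% of tenocyte-like cells. The share was thus higher in macrophage-like than in epitenon-like cells and higher there than in tenocyte-like cells in every library.

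**Figure D1:**
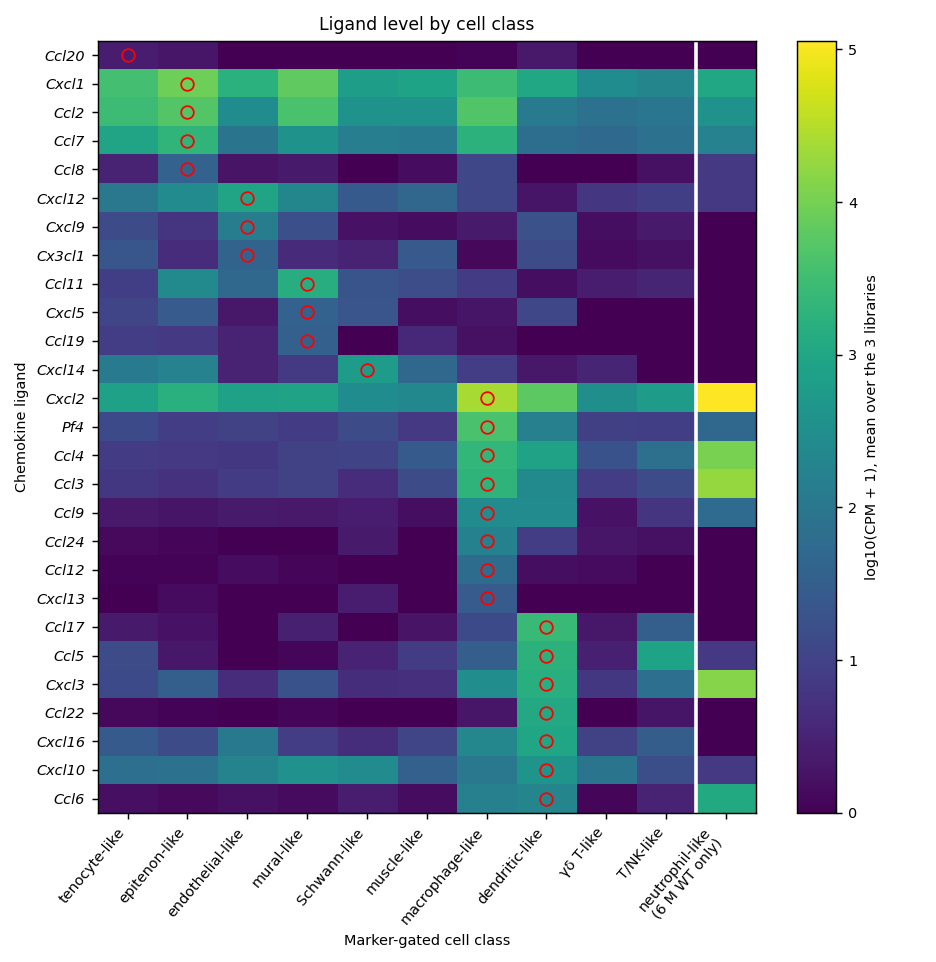
Level of the 27 ligands (rows) in the marker-gated cell classes (columns) as log10 of CPM + 1, the mean over the 3 libraries with each weighted equally, and for neutrophil-like cells 6 M WT only. A red circle marks the leading class of a ligand. *Cxcl2* in macrophage-like cells, at a mean of 25104 CPM, is the brightest circled field, while *Cxcl1* and *Ccl2* are bright across fibroblast, mural and macrophage-like columns.

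Ligands of CCR2, the monocyte receptor, came from fibroblasts and macrophages alike. *Ccl2* (ENSMUSG00000035385), the main monocyte attractant, stood at 5393 CPM (5362 to 5425), 4758 (4728 to 4788) and 4874 (4852 to 4896) in epitenon-like cells. In tenocyte-like cells it was 3731 CPM (3717 to 3745), 2318 (2303 to 2334) and 2669 (2640 to 2698) and in macrophage-like cells 6835 CPM (6781 to 6890), 4258 (4225 to 4292) and 3373 (3329 to 3417). Mural-like cells held 2881, 6558 and 2703 CPM, so that a different class was the highest in each library, macrophage-like in 6 M WT, mural-like in 6 M DTR and epitenon-like in 21 M B6. In epitenon-like cells, 6 M DTR and 21 M B6 stood at 0.882 (0.875 to 0.8899) and 0.904 (0.897 to 0.9104) times 6 M WT. The level of a class hides a wide spread between its cells. Thinned to 2000 UMIs, the median tenocyte-like cell of each library had 0 UMIs of *Ccl2*, while the highest had 141, 117 and 76, and the top 10% of cells held 63.3%, 76.3% and 69.5% of the UMIs. The median macrophage-like cell had 7, 4 and 3 UMIs, so the gene was spread more evenly over macrophages than over tenocytes. *Ccl2* was detected in 48.8% (47.4 to 50.1), 36.5% (34.8 to 38.3) and 40.2% (37.2 to 43.3) of thinned tenocyte-like cells and without thinning in 77.01%, 63.9% and 67.6%. Gamma delta T-like cells, taken here as a class that lacks it, were positive in 18.99%, 14.3% and 3.03% of thinned cells (median depth 10163, 7835 and 9325 UMIs, compared with 12923, 12382 and 11180 in tenocyte-like cells).

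*Ccl7*, a close relative of *Ccl2* at the same locus, had a similar distribution at a lower level. It stood at 2226, 1763 and 2226 CPM in epitenon-like cells, 2370, 1416 and 1522 CPM in macrophage-like cells and 1050, 707 and 938 CPM in tenocyte-like cells. *Ccl12*, a mouse CCR2 ligand in the same run of genes, was by contrast a macrophage transcript, at 40.1, 36.2 and 107 CPM. Macrophage-like cells held 89.3%, 93.7% and 98.2% of all its UMIs. *Ccl8*, whose product acts on CCR8 in the mouse, belonged to epitenon-like cells, at 16.5 CPM (14.8 to 18.3), 14.1 (12.5 to 15.8) and 82.2 (79.4 to 85.1), and these cells held 90.4%, 80.7% and 92.1% of its UMIs. The receptor *Ccr2* itself was highest in gamma delta T-like cells, at 522, 479 and 305 CPM, followed by T/NK-like cells at 204, 168 and 204 CPM. Macrophage-like cells carried 30.7, 105 and 42.3 CPM and dendritic-like cells 51.9, 149.9 and 196 CPM. Tenocyte-like and epitenon-like cells stayed under 1 CPM. *Ccr2* was detected in 54.4% (42.8 to 65.7), 52.7% (45.6 to 59.7) and 51.5% (33.5 to 69.2) of thinned gamma delta T-like cells, without thinning in 91.1%, 83.7% and 87.9%, and in 0.05404%, 0.134% and 0% of thinned tenocyte-like cells, and without thinning in 0.216%, 0.735% and 0.291%. The 0 of 1029 thinned cells of 21 M B6 allows up to 0.292% of such cells with a UMI.

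Neutrophil-attracting ligands of CXCR2 made up most of the chemokine transcripts in kept cells. Neutrophil-like cells were few among these cells, and barcodes under 1000 genes were not classed. *Cxcl1*, *Cxcl2*, *Cxcl3* and *Cxcl5* together held 55.3%, 66.02% and 51.2% of the UMIs of the 27 ligands in each library. *Cxcl1* (ENSMUSG00000029380) was the leading ligand of epitenon-like cells, at 9339 CPM (9297 to 9381), 9043 (9001 to 9085) and 7642 (7615 to 7670), where it took 48.9%, 49.7% and 43.5% of all ligand UMIs. Tenocyte-like cells held 3786, 4238 and 2599 CPM, macrophage-like cells 4167, 3310 and 1398 CPM, mural-like cells 5222, 10945 and 3572 CPM and endothelial-like cells 1719, 1855 and 1480 CPM. In each library the endothelial-like, mural-like and both fibroblast classes were thus above 1000 CPM. The mural level of 6 M DTR was above the epitenon level of any library. *Cxcl1* was detected in 81.1% (78.9 to 83.1), 78.1% (75.7 to 80.3) and 80.8% (79.2 to 82.2) of thinned epitenon-like cells, without thinning in 94.4%, 93.97% and 93.8%, and in 25.3%, 29.1% and 27.3% of thinned gamma delta T-like cells (median depth 14956, 15654 and 14267 UMIs in epitenon-like cells).

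*Cxcl2* (ENSMUSG00000058427) had the highest level of any member in a ranked class and was a macrophage transcript, at 31647 CPM (31529 to 31765), 31003 (30912 to 31094) and 12662 (12577 to 12747) in macrophage-like cells. The median thinned macrophage-like cell held 39, 40 and 10 UMIs of *Cxcl2* out of 2000. Dendritic-like cells were next with 5102, 9304 and 3691 CPM. Fibroblasts held less, at 1337, 2055 and 1466 CPM in epitenon-like and 713, 1194 and 449.7 CPM in tenocyte-like cells. Among the ranked classes, *Cxcl3* was highest in dendritic-like cells, at 1081, 2382 and 994 CPM. Macrophage-like cells held 349.5, 433 and 108 CPM and epitenon-like cells 23, 56.3 and 18.4 CPM. Of all *Cxcl3* UMIs, macrophage-like cells held the most of any class, at 20.94%, 53.66% and 26.19%. *Cxcl5* was low everywhere, at 34.9, 22.2 and 26.7 CPM in epitenon-like cells, and its mural lead rested on 6 M DTR alone (2.73, 112 and 0 CPM, the last allowing up to 11.8 CPM). Its tenocyte-like level was 7.42, 4.54 and 19.5 CPM, where 1 cell held 97.1% of the UMIs of 21 M B6. The receptor *Cxcr2* was at or under 4 CPM in every ranked class and at 142 CPM in the 27 neutrophil-like cells of 6 M WT. Of the 24 *Cxcr2* UMIs in these cells, 1 cell held 41.67%. The 27 neutrophil-like cells of 6 M WT held 114072 CPM (112471 to 115691) of *Cxcl2*, 18228 CPM (17591 to 18882) of *Ccl3*, 13618 CPM (13068 to 14185) of *Cxcl3* and 1421 CPM (1247 to 1612) of *Ccr1*. The ligands made up 16.0% of all UMIs of these cells, a higher share than in any other class of 6 M WT.

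Among the ranked classes, *Ccl3*, *Ccl4*, *Ccl5*, *Ccl6* and *Ccl9*, which attract monocytes and lymphocytes, were each highest in macrophage-like, dendritic-like or T/NK-like cells. The 27 neutrophil-like cells of 6 M WT were higher than these for *Ccl3*, for *Ccl4* at 10995 CPM and for *Ccl6* at 1155 CPM. *Ccl3* stood at 3141, 1758 and 1065 CPM in macrophage-like cells and *Ccl4* at 2980, 2159 and 1664 CPM. In tenocyte-like cells *Ccl3* was at 7.93, 6.88 and 1.94 CPM and *Ccl4* at 8.12, 9.09 and 3.31 CPM. Transcripts released from broken cells can give low values in any class. The 3 C1q genes, which tenocytes should lack, reached 0.127%, 0.244% and 0.237% of their macrophage level in tenocyte-like cells, while *Ccl3* reached 0.252%, 0.391% and 0.182%, *Ccl4* 0.272%, 0.421% and 0.199% and *Pf4* 0.197%, 0.348% and 0.363%. These 3 lay closer to the C1q values than *Cxcl2* did, and the part of released transcripts in them was not tested. The same measure gave 2.25%, 3.85% and 3.55% for *Cxcl2*, more than 10 times that of C1q in each library. *Ccl5*, a ligand of memory lymphocytes and monocytes, was highest in dendritic-like cells, at 3187, 998 and 1184 CPM, and in T/NK-like cells, at 644, 1466 and 407 CPM. Tenocyte-like cells stood at 9.69, 30.4 and 1.29 CPM, which came to 22.3%, 25.4% and 1.41% of all *Ccl5* UMIs, and 1 cell held 45.1% of the tenocyte-like UMIs of 6 M DTR. *Ccl6* stood at 218, 114 and 258 CPM in dendritic-like and 99.6, 122 and 256 CPM in macrophage-like cells, and *Ccl9* at 273, 241 and 318 CPM in macrophage-like and 129.8, 259 and 439 CPM in dendritic-like cells. Neither order held in all 3 libraries. The receptor *Ccr1* was carried by macrophage-like cells, at 387 CPM (374 to 401), 303 (294 to 312) and 400.4 (385 to 416), which held 80.7%, 90.3% and 92.8% of its UMIs. Dendritic-like cells followed with 94.1, 93.7 and 102 CPM.

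CXCL12 and its receptors were divided between stroma and leukocytes. *Cxcl12* (ENSMUSG00000061353) was led by endothelial-like cells, at 861 CPM (813 to 910.5), 589 (550.4 to 629) and 1271 (1215 to 1329). Epitenon-like cells held 249, 133 and 429.8 CPM, mural-like cells 176, 165 and 271 CPM and tenocyte-like cells 62.2, 80.1 and 177 CPM. Of all *Cxcl12* UMIs, epitenon-like cells held 42.56%, 32.97% and 72.14% and tenocyte-like cells 38.75%, 39.31% and 9.456%. *Cxcr4*, which signals on CXCL12, stood at 306, 354 and 276 CPM in gamma delta T-like cells, 262, 249 and 249 CPM in T/NK-like cells, 182, 92.5 and 301 CPM in dendritic-like cells and 104, 168 and 244 CPM in macrophage-like cells. Endothelial-like cells carried 111, 136 and 17.1 CPM and muscle-like cells 74.6, 77.6 and 113 CPM, and fibroblasts under 2 CPM. *Ackr3* (ENSMUSG00000044337), the scavenger of CXCL12, was the only receptor of the list led by fibroblasts, at 658 CPM (647 to 669), 832 (819.6 to 845) and 611 (604 to 619) in epitenon-like cells. Tenocyte-like cells held 246, 242 and 304 CPM, endothelial-like cells 278, 142 and 138 CPM, muscle-like cells 201, 192 and 122 CPM and macrophage-like cells 18.1, 28.2 and 13.02 CPM. *Ackr3* was detected in 53.8% (51.1 to 56.5), 65.2% (62.5 to 67.8) and 57.1% (55.2 to 59.03) of thinned epitenon-like cells, without thinning in 85.99%, 93.6% and 90.4%, and in 2.53%, 2.46% and 3.03% of thinned gamma delta T-like cells. The top 10% of epitenon-like cells held 40.7%, 34.3% and 38.6% of its thinned UMIs, compared with 40.5%, 44.9% and 40.4% for *Cxcl1* and 53.9%, 57.8% and 52.6% for *Ccl2*.

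Interferon-inducible and lymphoid ligands were found at lower levels. *Cxcl9* was led by endothelial-like cells, at 75.2, 106 and 239 CPM, and *Cxcl10* by dendritic-like cells, at 185, 628 and 423 CPM, closely followed by mural-like cells at 421, 301 and 338 CPM. In 6 M WT, tenocyte-like cells held the most UMIs of *Cxcl9* (70.97%) and *Cxcl10* (55.55%). In 21 M B6, epitenon-like cells did (35.12% and 56.23%). In 6 M DTR, endothelial-like cells held the most for *Cxcl9* (38.93%) and macrophage-like cells for *Cxcl10* (26.08%). Their receptor *Cxcr3* was carried by T/NK-like cells, at 14.1, 23.2 and 45.2 CPM, and gamma delta T-like cells, at 25.4, 25.1 and 29.6 CPM, and neither was the higher in all 3 libraries. *Cxcl16*, a membrane-bound ligand of CXCR6, was at 1078, 719 and 989.6 CPM in dendritic-like cells, 266, 201 and 178 CPM in macrophage-like cells and 117, 149 and 70.5 CPM in endothelial-like cells. *Cxcr6* (ENSMUSG00000048521) was the most abundant receptor of lymphocytes, at 872 CPM (809 to 938), 684 (646 to 724) and 667 (582 to 759.8) in gamma delta T-like and 533, 383 and 428 CPM in T/NK-like cells, and was detected in 63.3% (51.7 to 73.9), 68.5% (61.6 to 74.8) and 63.6% (45.1 to 79.6) of thinned gamma delta T-like cells, without thinning in 93.7%, 94.6% and 100%, and in 0.0721%, 0.0334% and 0.0972% of thinned tenocyte-like cells. As a class, gamma delta T-like cells thus carried *Cxcr6*, *Ccr2* and *Cxcr4*. *Cx3cl1*, the tethered ligand fractalkine, was highest in endothelial-like cells, at 44.98, 50.5 and 21.8 CPM, with 29.4, 24.1 and 10.1 CPM in tenocyte-like cells. Tenocyte-like cells held 90.06%, 80.9% and 33.69% of the *Cx3cl1* UMIs, and epitenon-like cells 42.59% of those of 21 M B6. Its receptor *Cx3cr1* was highest in macrophage-like cells, at 84.03, 119 and 59.1 CPM, with 93.5%, 90.5% and 74.4% of its UMIs there. Epitenon-like cells held 6.384% of the *Cx3cr1* UMIs of 6 M DTR and 22.79% of those of 21 M B6.

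Dendritic-like cells were highest for *Ccl17*, *Ccl22* and *Ccr7*, the last a receptor of lymph node traffic. *Ccl17* and *Ccl22*, ligands of CCR4 on T cells, were at 2694, 3536 and 1644 CPM and 2707, 326 and 280.2 CPM. The *Ccl22* value of 6 M WT rests on a single cell with 68.5% of the UMIs among 16 cells. *Ccr7*, which guides mature dendritic cells to lymph nodes, was at 1081, 516 and 573 CPM in these cells and 129, 80.2 and 74.04 CPM in T/NK-like cells. These 3 genes also lead the description of the class, from which they were not gated. *Ccl19*, a CCR7 ligand, was highest in mural-like cells, at 38.2, 33.8 and 31.5 CPM, but these held only 8.37%, 28.9% and 1.11% of its UMIs, compared with 61.4%, 43.3% and 26.1% in tenocyte-like and 20.3%, 7.22% and 67.4% in epitenon-like cells. *Ccl20* was hardly detected, with 4.01 CPM in tenocyte-like cells of 6 M DTR, where 1 cell held 49.4% of the UMIs. Its receptor *Ccr6* stood at 20.2, 25.1 and 12.3 CPM in T/NK-like cells, from 10, 26 and 6 UMIs. Gamma delta T-like cells were next, with a mean over the libraries of 12.85 CPM compared with 19.22 CPM, and were the higher in 21 M B6. They held 16.67%, 48.39% and 42.86% of the *Ccr6* UMIs, compared with 55.56%, 41.94% and 42.86% in T/NK-like cells.

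The remaining ligands differed in the class with the highest level. *Ccl11*, the eosinophil attractant eotaxin, was highest in mural-like cells, at 1082 CPM (1021 to 1145), 1276 (1220 to 1334) and 1939 (1772 to 2118), and next in epitenon-like cells, at 214, 133 and 399 CPM. The more numerous epitenon-like cells held 60.5%, 48.99% and 90.8% of its UMIs and mural-like cells 16.4%, 36.3% and 2.88%. *Ccl24*, a further eotaxin, was instead made by macrophage-like cells, at 150.4, 122 and 219.5 CPM. *Cxcl13*, which attracts B cells, was low and found mainly in macrophage-like cells, at 17.6, 0.345 and 62.8 CPM, with 76.6% of the UMIs of 6 M WT in 1 cell. *Cxcl14* was highest in Schwann-like cells, at 744 CPM (667 to 827), 682 (611 to 758) and 425 (366 to 490.2), with 191, 78.3 and 112 CPM in tenocyte-like and 150.2, 145 and 225 CPM in epitenon-like cells. Schwann-like cells held only 1.81%, 5.06% and 1.76% of its UMIs. Tenocyte-like cells held 75.85%, 45.72% and 13.05% and epitenon-like cells 16.34%, 42.8% and 82.45%. *Pf4* (ENSMUSG00000029373), known from platelets and from resident macrophages, was at 3764 CPM (3723 to 3805), 4192 (4159 to 4226) and 4228 (4179 to 4278) in macrophage-like cells, which held 93.5%, 94.99% and 96.2% of its UMIs.

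**Figure D2:**
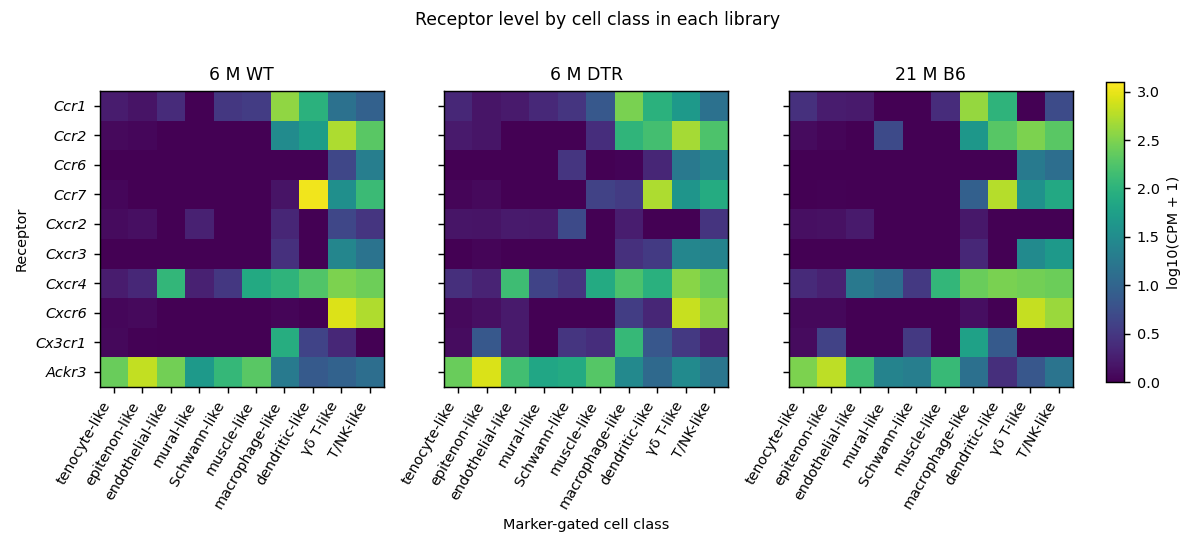
Level of the 10 receptors (rows) in 10 cell classes (columns) as log10 of CPM + 1, with a panel for each library. *Cxcr6* and *Ccr2* are bright in the gamma delta T-like column, *Ccr1* in the macrophage-like column, *Ccr7* in the dendritic-like column and *Ackr3* in the fibroblast columns of every panel, while *Cxcr2* is dark throughout.

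The libraries differed in cell make-up, and for some ligands the class that held most transcripts differed too. How far make-up and how far the level per class set these shares was not tested. Tenocyte-like cells were 66.4%, 45.7% and 21.5% of kept cells and epitenon-like cells 16.3%, 19.7% and 54.8%. Of all *Ccl2* UMIs, tenocyte-like cells held 59.4%, 33.6% and 13.1% and epitenon-like cells 23.6%, 34.9% and 74.9%. For *Cxcl1* the tenocyte-like share was 52.4%, 38.1% and 9.103% and the epitenon-like share 35.5%, 41.1% and 84.05%. Tenocyte-like cells thus held the most transcripts of both ligands in 6 M WT, and epitenon-like cells did in 6 M DTR and 21 M B6. The share of *Cxcl2* held by macrophage-like cells was 65.1%, 76.1% and 53.6%, with a majority in each library. *Ackr3* followed the fibroblasts, with 54.8%, 34.0% and 13.0% of UMIs in tenocyte-like cells and 40.3%, 59.0% and 81.9% in epitenon-like cells. These shares depend on which cells were released and captured, and digestion differed between the libraries.

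**Figure D3:**
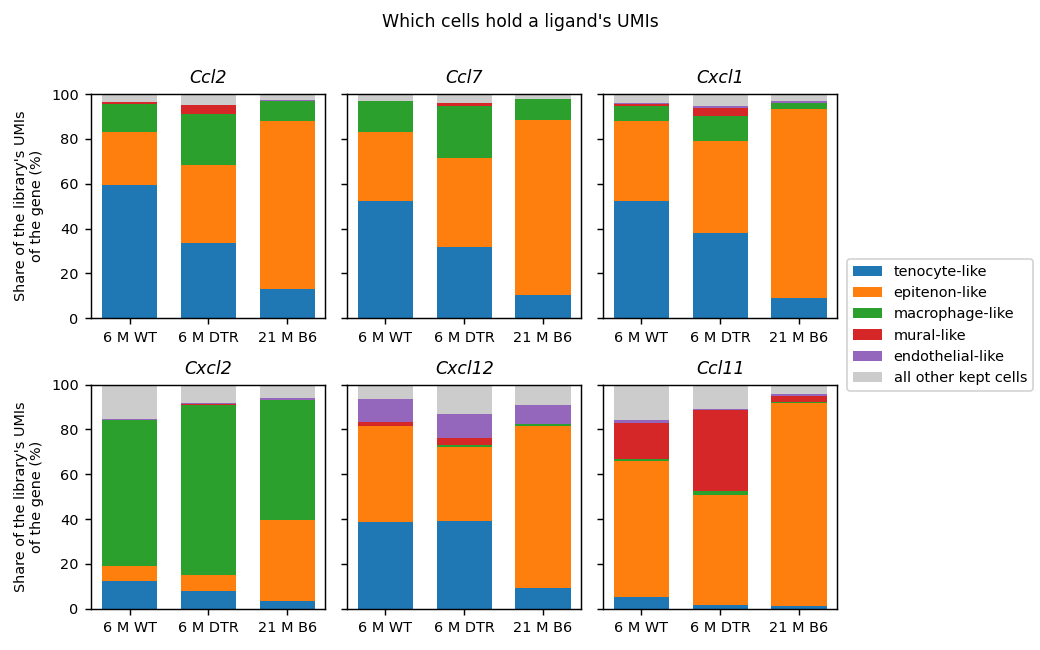
Share of a library's UMIs of 6 ligands (panels, percent) that each cell class holds, with a bar per library and grey for all other kept cells. For *Ccl2* the tenocyte-like part is 59.4% in 6 M WT and 13.1% in 21 M B6, while the epitenon-like part is 23.6% and 74.9%.

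Within tenocyte-like cells, the question was whether the ligands differed in the cells that remained after depletion or with age. In 6 M DTR compared with 6 M WT, 18 members reached 5 CPM in 1 or both libraries, of which *Ccl5* was at least 2-fold higher and *Ccl11*, *Cxcl3*, *Cxcl9* and *Cxcl14* at least 2-fold lower, so that 5 of 18 passed 2-fold compared with 4.34% of 9423 genes at this level (2.83% higher and 1.51% lower). The median log2 ratio of the members was −0.27 and that of all genes 0.04. *Cxcl14* had the firmest of these differences, at 0.409 (0.394 to 0.426) times 6 M WT, with no cell holding over 2% of its UMIs. *Ccl2* stood at 0.621 (0.617 to 0.626) and *Ccl7* at 0.674 (0.664 to 0.683), while *Cxcl1* stood at 1.12 (1.11 to 1.13) and *Cxcl2* at 1.68 (1.65 to 1.696). *Ccl2* and *Ccl7* were thus lower and *Cxcl1* and *Cxcl2* higher, all by less than 2-fold. *Cxcl10* was at 0.5003 (0.471 to 0.531), just short of 2-fold, and *Cxcl9* at 0.255 (0.204 to 0.316). For *Ccl5*, at 3.13 (2.86 to 3.44), 1 cell of 6 M DTR held 45.1% of the UMIs, and for *Cxcl3*, at 0.427 (0.373 to 0.488), 1 cell of 6 M WT held 51.01%. Without the top cell of each library, the *Cxcl3* ratio was 0.611 and no longer past 2-fold. *Ackr3* differed little, at 0.987 (0.963 to 1.01).

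In tenocyte-like cells of 21 M B6 compared with 6 M WT, 11 of 20 members passed 2-fold, compared with 6.45% of genes (3.6% higher and 2.84% lower). The median of all genes was −0.26 on the log2 scale in this comparison and −0.04 when scaled by TMM factors, a shift that also holds for epitenon-like cells (−0.28 and 0.01), so ratios of 21 M B6 in fibroblasts are read against it. Higher were *Ccl8*, *Ccl11*, *Ccl19*, *Cxcl5*, *Cxcl9*, *Cxcl12* and *Pf4*, and lower were *Ccl3*, *Ccl4*, *Ccl5* and *Cx3cl1*. *Ccl8* rested on 20 UMIs in 6 M WT and 72 in 21 M B6, at 0.267 and 5.81 CPM. *Ccl8* and *Ccl11* were at 82.2 and 399 CPM in epitenon-like cells of 21 M B6. The part of epitenon transcripts in their tenocyte-like counts was not tested. *Cxcl12* was at 2.85 (2.702 to 2.99) times 6 M WT, from 62.2 CPM to 177 CPM. *Ccl19* was at 3.704 (3.07 to 4.45) and *Cxcl9* at 2.92 (2.56 to 3.33). *Cx3cl1* was at 0.343 (0.284 to 0.4104), and no cell held over 4% of its UMIs in these libraries. Of the abundant ligands, *Cxcl1* at 0.687 (0.679 to 0.695), *Ccl2* at 0.715 (0.707 to 0.724) and *Cxcl2* at 0.631 (0.614 to 0.649) were lower by less than 2-fold. *Ccl7* was close to 6 M WT, at 0.893 (0.876 to 0.911). Its log2 ratio of −0.16 was 0.22 at a mitochondrial limit of 5% and 0.05 with TMM factors. Of the members past 2-fold, *Ccl3*, *Ccl4* and *Pf4* were near the C1q values given above, and the *Pf4* ratio of 2.07 (1.75 to 2.44) was 1.62 without the top cell of each library. *Cxcl5* rested on 1 cell, without which its log2 ratio was −3.05 and no longer 1.40. The digestion time was the same in 21 M B6 and 6 M DTR, and between these libraries *Cxcl12* stood at 2.21 (2.09 to 2.33), *Cxcl10* at 3.19 (2.95 to 3.44), *Cxcl2* at 0.377 (0.366 to 0.387) and *Cx3cl1* at 0.419 (0.345 to 0.505) in tenocyte-like cells, where 13 of 20 members passed 2-fold compared with 10.8% of genes (3.87% higher and 6.91% lower).

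Epitenon-like cells of 6 M DTR held most ligands within 2-fold of 6 M WT. *Cxcl3* and *Cx3cr1* of 17 members were at least 2-fold higher and none at least 2-fold lower, compared with 2.36% of genes (0.498% higher and 1.86% lower). *Cxcl3* was at 2.45 (2.196 to 2.73), from 23 CPM to 56.3 CPM. *Cx3cr1* was counted with 1 UMI in 6 M WT and 122 in 6 M DTR, of which 1 cell held 46.7%, a ratio of 126 (22.2 to 5011). Epitenon-like cells of 21 M B6 held 121 UMIs of *Cx3cr1*, a ratio to 6 M WT of 63.8 (11.2 to 2541). At 3.11 CPM it was under the minimum of 5 CPM and not counted there. *Cxcl12* stood at 0.534 (0.5097 to 0.5602), *Cxcl10* at 0.518 (0.474 to 0.566) and *Ccl11* at 0.621 (0.592 to 0.652), all lower by less than 2-fold, and *Cxcl2* at 1.54 (1.51 to 1.56). *Cxcl1* and *Ccl2* were close to 6 M WT, at 0.968 (0.962 to 0.975) and 0.882 (0.875 to 0.8899).

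In epitenon-like cells of 21 M B6, *Ccl8*, *Ccl19* and *Cxcl9* were at least 2-fold higher and *Ccl3* and *Ccl4* lower than in 6 M WT, 5 of 18 members compared with 4.23% of genes (1.82% higher and 2.41% lower). Under scaling by TMM factors, 5 members were higher and 1 lower. *Ccl8* was the clearest, at 4.99 (4.46 to 5.599) times 6 M WT and 5.84 (5.17 to 6.62) times 6 M DTR, with no cell of 21 M B6 holding over 3% of its UMIs. *Cxcl9* was at 13.6 (8.74 to 22.5), where 1 cell of 21 M B6 held 22.8%, and with classes taken from Seurat clusters its log2 ratio was 0.99 compared with 3.77. *Ccl19* was at 2.52 (2.03 to 3.15). Below 2-fold without TMM factors, *Ccl11* stood at 1.86 (1.8 to 1.93), *Cxcl12* at 1.73 (1.67 to 1.78) and *Cxcl10* at 1.62 (1.53 to 1.72). The CPM ratio of *Ccl7* was 1 (0.989 to 1.01), to be read against a median log2 ratio of −0.28 over all genes. Compared with 6 M DTR at the same digestion time, *Cxcl12* stood at 3.23 (3.101 to 3.37), *Ccl11* at 2.996 (2.88 to 3.12) and *Cxcl3* at 0.327 (0.298 to 0.3598), and 9 of 19 members passed 2-fold, compared with 6.19% of genes (3.6% higher and 2.59% lower).

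**Figure D4:**
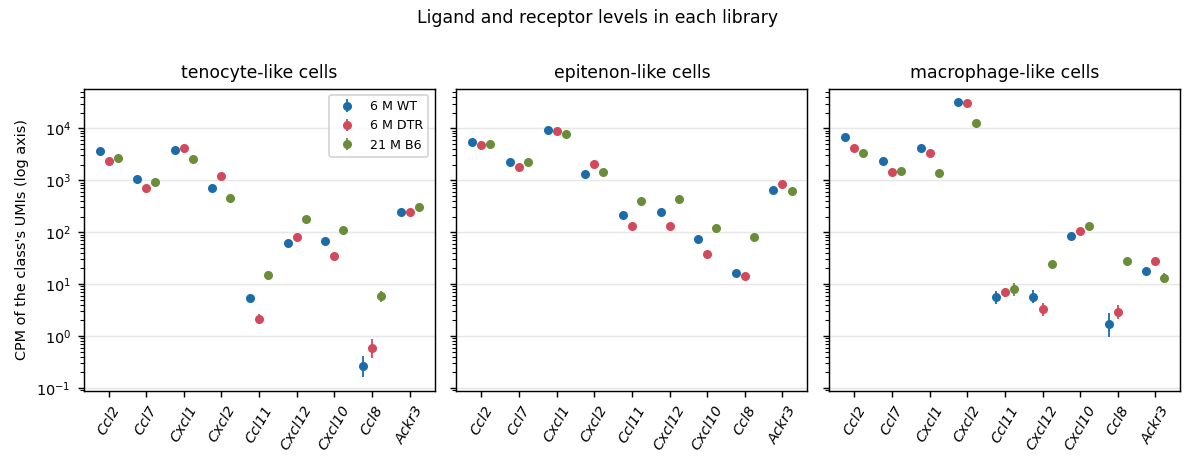
Level in CPM (log axis) of 8 ligands and *Ackr3* in tenocyte-like, epitenon-like and macrophage-like cells (panels), with a point per library and its exact 95% Poisson interval. *Cxcl12* and *Ccl8* of 21 M B6 are the highest of the 3 libraries in every panel, with *Cxcl12* at 177, 430 and 23.9 CPM, and *Cxcl2* of 21 M B6 in macrophage-like cells, at 12662 CPM, is below the other libraries.

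In macrophage-like cells of 6 M DTR, 4 of 25 members passed 2-fold against 6 M WT. *Ccl17* and *Ccr2* were higher and *Cxcl13* and *Cxcl14* lower, compared with 2.63% of genes (1.22% higher and 1.41% lower). *Ccr2*, a marker of macrophages derived from blood monocytes, was at 3.43 (3.01 to 3.92), from 30.7 CPM to 105 CPM, and no cell of 6 M DTR held over 4% of its UMIs. *Cxcr4* stood at 1.62 (1.496 to 1.75) and *Cx3cr1* at 1.42 (1.303 to 1.55). *Ccl17*, at 15.8 (9.44 to 28.4), had 69.9% of its UMIs of 6 M DTR in 1 cell, and *Cxcl13*, at 0.0196 (0.00627 to 0.0467), had 76.6% of those of 6 M WT in 1 cell. *Ccl2*, *Ccl3* and *Ccl7* were lower by less than 2-fold, at 0.623 (0.616 to 0.63), 0.5597 (0.5502 to 0.569) and 0.597 (0.586 to 0.609), while *Cxcl2* was at 0.9797 (0.975 to 0.984).

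Macrophage-like cells of 21 M B6 differed at least 2-fold from 6 M WT in 14 of 27 members, compared with 7.18% of genes (3.93% higher and 3.25% lower). Lower were *Ccl2*, *Ccl3*, *Ccl5*, *Cxcl1*, *Cxcl2* and *Cxcl3*, and higher were *Ccl6*, *Ccl8*, *Ccl12*, *Ccl17*, *Cxcl12*, *Cxcl13*, *Ccr7* and *Cxcr4*. *Cxcl2* was at 0.4001 (0.397 to 0.403), *Cxcl1* at 0.335 (0.328 to 0.343), *Ccl3* at 0.339 (0.3302 to 0.348) and *Cxcl3* at 0.308 (0.284 to 0.334). *Ccl12* was at 2.68 (2.35 to 3.05), *Ccl6* at 2.57 (2.37 to 2.79), *Ccl8* at 16.3 (9.63 to 29.7) and *Cxcr4* at 2.34 (2.16 to 2.54). *Ccl8* stood at 1.72, 2.899 and 27.98 CPM in these cells, compared with 82.2 CPM in epitenon-like cells of 21 M B6, and 1 macrophage-like cell of 21 M B6 held 22.99%. *Ccl2* and *Ccl12*, which lie in the same run of genes, on the other hand stood on opposite sides of 6 M WT in the same cells. Of the UMIs of 21 M B6, 1 cell held 86.8% for *Ccr7* and 1 cell 92.7% for *Ccl17*. *Pf4* and *Ccr1* were close to 6 M WT, at 1.12 (1.11 to 1.14) and 1.03 (0.982 to 1.09). Compared with 6 M DTR at the same digestion time, *Cxcl2* was at 0.408 (0.405 to 0.411), *Cxcl1* at 0.422 (0.413 to 0.432), *Ccr2* at 0.402 (0.353 to 0.457) and *Ccl12* at 2.96 (2.65 to 3.33), and 15 of 27 members passed 2-fold compared with 7.67% of genes (4.51% higher and 3.15% lower). The median share of mitochondrial counts was 2.95%, 3.102% and 5.77% in macrophage-like cells. It was 2.775%, 2.848% and 5.533% in tenocyte-like and 2.611%, 2.563% and 4.509% in epitenon-like cells. Its part in the differences of 21 M B6 was not tested in any of these classes beyond a limit of 5%. Under that limit 6 of 19 members were at least 2-fold higher and 4 lower than in 6 M WT in tenocyte-like cells (8.06% of genes). In epitenon-like cells 3 of 18 were higher and 2 lower (4.25% of genes). In macrophage-like cells 9 of 28 members were at least 2-fold higher and 3 lower than in 6 M WT, while 8.22% of genes passed 2-fold. The main setting gave 8 and 6 of 27, and 9 members were past 2-fold under both limits. Those back under 2-fold had log2 ratios of −0.88 for *Cxcl2* compared with −1.32, −0.68 for *Ccl2* compared with −1.02, −0.88 for *Ccl5* compared with −1.59, 0.94 for *Ccl6* compared with 1.36 and 0.63 for *Ccl12* compared with 1.42.

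**Figure D5:**
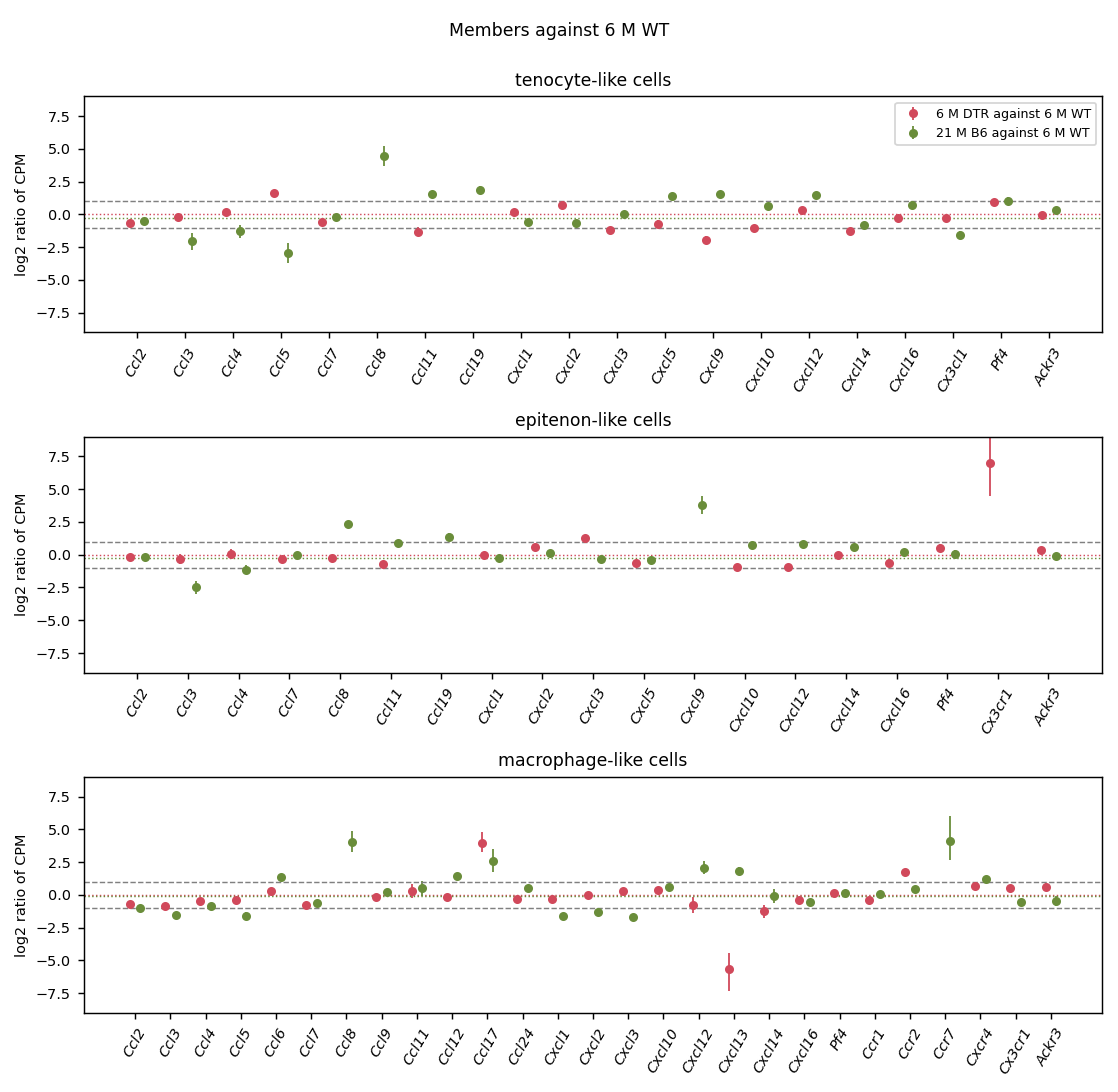
Log2 ratio of CPM against 6 M WT for every member that reached 5 CPM in 1 or both of the libraries set side by side, in tenocyte-like, epitenon-like and macrophage-like cells (panels), red for 6 M DTR and green for 21 M B6, with exact 95% intervals from both counts. Dashed lines mark 2-fold and dotted lines the median of all genes, and the upper end of the *Cx3cr1* interval in epitenon-like cells lies beyond the axis. In macrophage-like cells *Cxcl1*, *Cxcl2* and *Cxcl3* of 21 M B6 lie below the lower dashed line and *Ccl6*, *Ccl8* and *Ccl12* above the upper.

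Other genes of the pathway were counted from fixed lists. Of 10 further ligands, *Ccl21a*, the lymphatic CCR7 ligand, stood at 872, 1315 and 892 CPM in endothelial-like cells, and of the 1 or 2 that reached 5 CPM in a fibroblast or macrophage-like comparison with 6 M WT, none passed 2-fold. Of 13 further receptors, the scavenger *Ackr2* was highest in epitenon-like cells, at 54.7, 70.2 and 51.9 CPM, and *Ackr1*, which marks venules, was at 115, 207 and 97.5 CPM in endothelial-like cells. *Ackr2* was the only one of these receptors at least 2-fold higher in tenocyte-like cells of 21 M B6, compared with 3.6% of genes. Its level there was 16.9, 17.1 and 35.02 CPM. Epitenon-like cells also held *Ackr1* at 42.9, 26.4 and 50.8 CPM and *Ackr4* at 10.7, 14.4 and 21.2 CPM. Beside these, they thus carried *Ackr2* and *Ackr3*, receptors that take up inflammatory ligands and CXCL12 respectively.

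Of the cytokines that induce chemokines and their receptors, 9 reached 5 CPM in macrophage-like cells of 21 M B6 or 6 M WT, where 3 were at least 2-fold lower and 1 higher in 21 M B6, compared with 3.25% and 3.93% of genes. *Il1a* was at 1173, 394 and 135 CPM, *Il1b* at 898, 811 and 129.6 CPM and *Tnf* at 3703, 2072 and 1479 CPM, and these were the 3 that were lower, whereas *Il6* was higher. In macrophage-like cells of 6 M DTR, *Il1a* was the only such gene past 2-fold, compared with 2.63% of genes. *Il6* was higher in fibroblasts of 21 M B6, at 125, 77.1 and 427 CPM in tenocyte-like and 389, 173 and 904 CPM in epitenon-like cells. Of 11 NF-kB feedback genes, *Nfkbie* and *Tnip1* were at least 2-fold lower in tenocyte-like cells of 6 M DTR (1.51% of genes) and *Bcl3* and *Birc3* at least 2-fold higher in those of 21 M B6 (3.6% of genes). In macrophage-like cells of 21 M B6, *Nfkbiz* and *Tnip1* were at least 2-fold lower (3.25% of genes) and *Bcl3* higher (3.93% of genes). *Nfkbia*, the first inhibitor induced by NF-kB, was at 1368, 1652 and 1283 CPM. Genes of receptor signalling and desensitisation that reached 5 CPM numbered 12. In macrophage-like cells of 21 M B6, 1 of them was past 2-fold, compared with 7.18% of genes. It was *Rgs1*, which limits chemokine receptor signals, at 1141, 905 and 329 CPM. The 21 immediate early genes, which respond to tissue digestion, summed to 10653, 14728 and 18684 CPM in tenocyte-like, 15149, 16084 and 23231 CPM in epitenon-like and 16104, 17783 and 13635 CPM in macrophage-like cells. In 21 M B6 compared with 6 M WT, 6 of the 21 were at least 2-fold higher and none lower in tenocyte-like cells, compared with 3.6% and 2.84% of genes. In macrophage-like cells none was higher and 5 were lower, compared with 3.93% and 3.25%. Their part in the ligand levels was not tested.

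Fibroblast transcripts were also counted in other classes. The summed level of *Col1a1*, *Col1a2* and *Col3a1* in gamma delta T-like cells was 2.16%, 4.15% and 0.8798% of the fibroblast level, and *Ccl2* in these cells was at 2.34%, 2.41% and 1.02% and *Cxcl1* at 1.81%, 9.77% and 1.68%. *Ccl2* was below the collagen value in 6 M DTR and above it in the other libraries, whereas *Cxcl1* was below it in 6 M WT and above it in 6 M DTR and 21 M B6. The source of these counts was not tested. In macrophage-like cells the collagens were at 1.56%, 1.46% and 1.005%, far below *Ccl2* at 149.8%, 120.3% and 89.4%. *Cxcl12*, at 3.68%, 3.11% and 7.89% of its fibroblast level there, was closer to them.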

How the data were processed

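Single-cell RNA sequencing (10x Genomics Chromium 3′) of 3 libraries was analysed. The authors deposited raw UMI counts per gene and barcode without normalization, and the file headers name Cell Ranger 6.0.1, whereas the submitters' processing notes list 2.1.1. Which build and annotation Cell Ranger used is not given in the sources used here. Promoter sequences come from RefSeq GRCm38.p6. Members and gene lists were chosen with earlier results of these data known. Every member is named with its level, and of the other lists members of at least 20 CPM in a class, apart from 1 gene that is not reported here.

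Following the study's filter, cells of 1000 to 5000 genes with no more than 10% mitochondrial counts entered. The gate scored each of them by the mean log-normalized level of marker lists. Scrublet marked 1, 6 and 1 cells, which is too few to have worked, so doublets were kept and an alternative left out the 5% highest scores (418, 328 and 240 cells). UMIs were summed per class and library and divided by all UMIs of the class. Each group being 1 library, differences were not tested, and members that reached 5 CPM in 1 or both libraries were counted at 2-fold. A count of 0 allows up to 3 counts. Shares of positive cells were taken after thinning to 2000 UMIs, with exact binomial intervals, leaving out 9, 5 and 1 shallower cells. Alternatives changed the mitochondrial limit, doublets, class assignment (Seurat 5.3.0 clusters without the members as features), gate, scaling (TMM factors, edgeR 4.0.16), minimum level, thinning, the upper gene limit and positivity without thinning. Leaving out each member's top cell was chosen after seeing the data. The calculation was tested on simulated counts. Other steps used R 4.3.3 with Matrix 1.6.5 and Python 3.11.15 with scanpy 1.11.5, scipy 1.17.1, matplotlib 3.10.9, pandas 2.3.3 and numpy 2.4.6.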

Additional observations from a re-analysis of the deposited data

Results flagged for a closer look

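*Cxcl3* in 6 M DTR against 6 M WT stood on opposite sides in the fibroblast classes, at 2.45 times in epitenon-like and 0.427 times in tenocyte-like cells. With 1 library per group this difference was not tested, and 1 tenocyte-like cell of 6 M WT held 51.01% of the UMIs.

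Barcodes left out for more than 10% mitochondrial counts (4284, 6943 and 6932) also held ligand transcripts, above the limit that a count of 0 allows. The 27 ligands took 0.819%, 0.729% and 0.389% of their UMIs in the order used above, compared with 1.56%, 1.83% and 1.53% in kept cells.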

How the results depend on the processing

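Counts of members past 2-fold moved with the minimum level. With 20 CPM they were 2 of 11 and 3 of 11 members in tenocyte-like cells (6 M DTR and 21 M B6 against 6 M WT). They were 1 of 11 and 1 of 12 in epitenon-like cells and 2 of 21 in macrophage-like cells of 6 M DTR. The shares of all genes were 3.46%, 5.22%, 1.3%, 3.11% and 1.63% in that order. With 10 UMIs alone the counts were 11 of 34, 18 of 34, 6 of 30, 9 of 31 and 8 of 33. The shares of all genes were then 12.2%, 15.1%, 8.44%, 12.1% and 8.94%. In epitenon-like cells of 6 M DTR the count was 2 of 17 members as reported. It was 4 of 18 without doublets, 7 of 20 with Seurat clusters and 5 of 18 after thinning. It was 1 of 16 without the upper gene limit and 1 of 16 without each member's top cell. The shares of all genes were 2.36%, 2.34%, 2.57%, 5.23%, 1.96% and 2.35% in that order. Without the upper gene limit, the count in epitenon-like cells of 21 M B6 was 8 of 18, compared with 4.36% of genes. Under the stricter gate, it was 2 of 23 in macrophage-like cells of 6 M DTR, compared with 2.82% of genes. The other total counts, of leading classes among them, stayed within 1.5 times. In tenocyte-like cells of 21 M B6 the balance moved, from 7 higher and 4 lower of 20 members to 4 and 6 of 18 with Seurat clusters. It was 5 and 5 of 19 under the stricter gate and 4 and 5 of 18 without each member's top cell. The shares of all genes past 2-fold were 6.55%, 6.68% and 6.43% under these alternatives. Under the remaining alternatives more members were higher than lower. In macrophage-like cells of 21 M B6 the total of 14 was 11 to 17, while the share of all genes was 5.46% to 16.3%. However, the 6 lower members were 3 at a mitochondrial limit of 5% and 3 under the stricter gate, and the 8 higher were 5 with Seurat clusters. *Cxcl5* in tenocyte-like cells of 21 M B6 reversed, from 1.40 to −3.32 with Seurat clusters and −3.05 without its top cell, which held 97.1% of the UMIs. Of the 41 ratios against 6 M WT past 2-fold, 23 stayed past 2-fold under every alternative. The 41 had 328 alternative values, of which 34 were back under 2-fold. Among these values were *Ccl2* (log2 −0.68) and *Cxcl2* (−0.88) in macrophage-like cells of 21 M B6 at a mitochondrial limit of 5%. With Seurat clusters they included *Ccl17* (0.09) and *Ccr7* (0.55) in the same cells and *Cxcl9* (0.99) in epitenon-like cells of 21 M B6. The cause was not tested. No paired analysis was possible because each group is 1 library and no test was made. Depth limits members under about 5 CPM, such as *Ccl20* and *Cxcr2*.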

Other observations

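Chemokine genes were detected together in single cells. After thinning to 2000 UMIs, all 4 of *Ccl2*, *Ccl7*, *Cxcl1* and *Cxcl2* were found in 36.8%, 27.1% and 24.4% of macrophage-like cells, 16.5%, 20.1% and 16.2% of epitenon-like cells and 6.85%, 6.65% and 4.08% of tenocyte-like cells. None of the 4 was found in 3.99%, 4.24% and 7.13% of macrophage-like, 12.01%, 13.9% and 12.1% of epitenon-like and 18.4%, 21.5% and 26.9% of tenocyte-like cells.

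Mural-like cells held the highest *Il6* level of the fibroblast and vessel classes, at 3954, 4155 and 3894 CPM. *Ccrl2*, an atypical receptor that presents chemerin, was at 105, 74.7 and 212 CPM in mural-like and 68.6, 81.3 and 39.95 CPM in macrophage-like cells, and at 743 CPM in the 27 neutrophil-like cells of 6 M WT. *Ccr8*, the receptor of mouse CCL8, was at 42.4, 9.67 and 69.9 CPM in T/NK-like cells, and *Ccr4*, the receptor of CCL17 and CCL22, at 44.4, 40.6 and 18.5 CPM.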
